A study of Mus musculus with 24 samples.

Results

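The genes described here are 9 genes of MHC class II antigen presentation, chosen by their symbols out of 16118 genes in the deposited table: H2-Aa, H2-Ab1, H2-Eb1, Cd74, Ciita, H2-DMa, H2-DMb1, H2-Oa and H2-Ob. All 9 passed the filter on low values, which left 16005 genes to test. MHC class II molecules are pairs of an α and a β chain that carry peptides from ingested proteins to the cell surface, where CD4 T cells read them. B cells, dendritic cells and macrophages are the best known cells that make them, and the inguinal fat pad of the mouse encloses a lymph node, which is rich in such cells. The invariant chain Cd74 blocks the groove and is cut down to a short remnant, the H2-DM pair swaps that remnant for antigen, the H2-O pair restrains H2-DM, and Ciita switches the whole set of genes on.

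Polyadenylated RNA of inguinal white adipose tissue, the subcutaneous fat of the groin, was sequenced from 24 mice, 1 library per mouse. There were 4 mice in each of 6 groups: males and females at postnatal day 21 (p21), both sexes at postnatal day 28 (p28) taken from the dam a week earlier (SW, standard weaning), and both sexes at p28 that had stayed with her (DW, delayed weaning). The design asks what age, the time of weaning and sex do to this tissue. The p21 animals carry the SW label too, no group carries a transgene or a drug in the labels, and the strain is not given in the sources used here. Titles of the p21 samples name p28 while their descriptions and age fields say p21, which was followed. The libraries held 57600711 to 302145813 reads in the listed genes, and each of the 9 genes had 774 to 95435 reads in every library, so that counting error is small beside the spread between mice. Markers of fat cells were present in every library (Adipoq 787.4 to 1526.8, Fabp4 9996.7 to 17455.7 normalised reads), as were markers of lymph node stroma such as Glycam1 (262.4 to 1746.2) and Ccl21a (130.3 to 524.9). In whole tissue, more cells of a type and more RNA per cell cannot be told apart.

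Of the 9 genes, 7 lie in the mouse MHC on chromosome 17. In RefSeq's GRCm38.p6 positions, H2-Oa (ENSMUSG00000024334) spans chr17:34092379-34095234, H2-DMa (ENSMUSG00000037649) chr17:34119693-34139101 and H2-DMb1 (ENSMUSG00000079547) chr17:34153191-34160229. H2-Ob (ENSMUSG00000041538) spans chr17:34238905-34245908, H2-Ab1 (ENSMUSG00000073421) chr17:34263227-34269418, H2-Aa (ENSMUSG00000036594) chr17:34282744-34287823 and H2-Eb1 (ENSMUSG00000060586) chr17:34305867-34316674. Ciita (ENSMUSG00000022504) lies outside it, at chr16:10480014-10531064.

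Class II promoters are known for a shared module, an X box bound by the RFX complex upstream of a Y box bound by NF-Y, on which Ciita acts without touching DNA itself. RefSeq promoter windows (GRCm38.p6, 250 bases before to 50 after a gene's start) matched 6 of the 9 genes, and 5 of these 6 held the letters CNNGNAAC followed by ATTGG on the strand of the gene. The stretches around the pair are shown because they are the sequence that these genes have in common; capitals mark the 2 motifs.
H2-Oa, chr17:34092290-34092350, + strand: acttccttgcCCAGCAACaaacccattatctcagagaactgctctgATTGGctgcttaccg
H2-DMb1, chr17:34153084-34153144, + strand: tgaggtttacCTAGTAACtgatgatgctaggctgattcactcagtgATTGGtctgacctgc
H2-Ob, chr17:34238805-34238862, + strand: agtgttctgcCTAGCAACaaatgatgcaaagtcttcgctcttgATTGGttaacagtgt
H2-Aa, chr17:34287857-34287917, - strand: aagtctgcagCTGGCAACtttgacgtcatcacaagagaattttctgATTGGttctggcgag
H2-Eb1, chr17:34305763-34305822, + strand: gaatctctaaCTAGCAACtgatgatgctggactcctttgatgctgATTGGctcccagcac

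The 2 motifs began 36 bases apart in H2-Oa, H2-DMb1 and H2-Aa, 35 apart in H2-Eb1 and 33 apart in H2-Ob. The first began between 79 bases (H2-Oa) and 97 bases (H2-DMb1) before the start of the gene. Each motif was searched on both strands, and alone each is common: CNNGNAAC stood in 39.1% and ATTGG in 37.4% of all 32851 windows. The pair in this order on 1 strand, beginning 15 to 45 bases apart so that the motifs do not overlap, stood in 1.32% of windows. Neither window of H2-DMa held the pair. The motif letters were chosen with the members' windows in view, so the count describes these windows and tests nothing.

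Per kilobase of exon, Cd74 was the most abundant of the 9, with a mean over the 24 libraries of 180.4 normalised reads per kilobase. H2-Ab1 followed at 74.1, H2-Aa at 39.2 and H2-Eb1 at 38.1 normalised reads per kilobase. The genes that load or regulate were lower on the same scale: H2-DMb1 12.9, H2-Ob 10.0, H2-Oa 8.54, H2-DMa 6.48 and the transactivator Ciita 5.05. H2-DMb1 and H2-Eb1 have related neighbours, H2-DMb2 and H2-Eb2, whose mean levels were 41.9 and 13.3 normalised reads. How alike the sequences are was not examined. How shared reads were counted is not given in the sources used here, so the values of H2-DMb1 and H2-Eb1 are uncertain to that extent. Between the lowest and the highest library the 9 genes differed 2.53-fold (H2-DMb1) to 5.95-fold (H2-Ab1), against a median of 2.03-fold over all genes on the value + 1 scale.

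Females at p21 had the lowest mean of the 6 groups for 9 of the 9 genes. The highest mean was in SW males for 5 genes, in DW females for 2, and in SW females and DW males for 1 each. For each of those 5 genes, 1 animal, number 124, was the highest SW male. Its H2-Ab1 value was 403.7, against 176.2 to 256.6 in the other SW males. When the 6 groups were put in order of their means for each gene, 45 of 45 pairs of neighbouring groups overlapped in range. Neighbours in such an order are the groups with the closest means, so this count describes the orders and tests nothing.

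**Figure D1:**
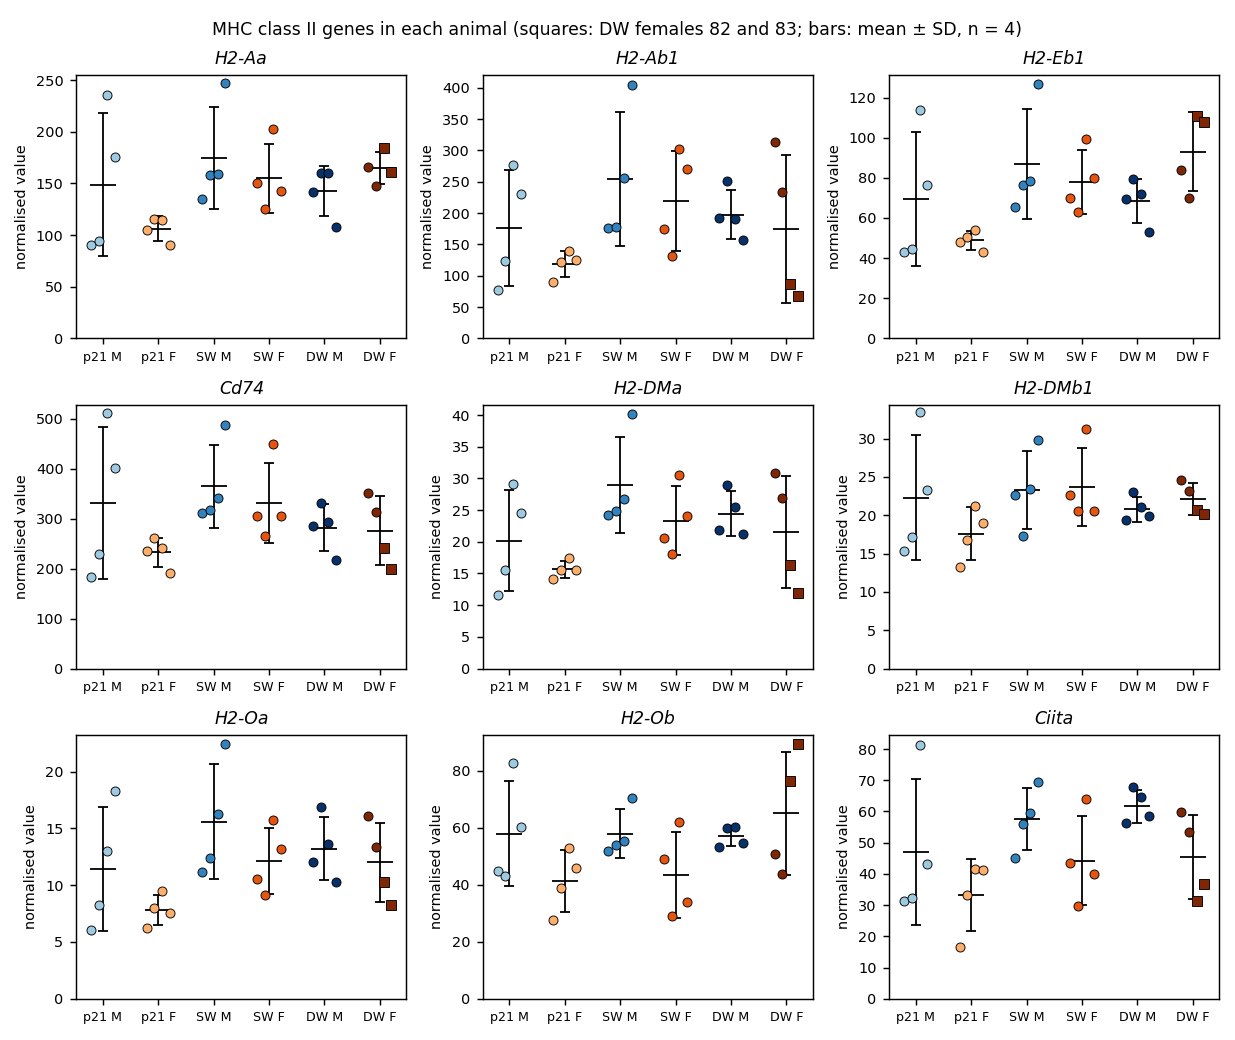
Normalised value (deposited reads divided by a library factor) of each of the 9 genes in each mouse, by group, with p28 groups named SW and DW; points are mice, horizontal bars the group mean and whiskers the SD (n = 4). The p21 females have the lowest mean in every panel. They sit close together in H2-Aa, H2-Eb1 and H2-DMa but spread in Ciita (16.7 to 41.6) and H2-Ob (27.6 to 52.8). The squares (DW females 82 and 83) lie above the other DW females in H2-Eb1 and H2-Ob and mix with them in H2-Aa. In every other panel they lie below them.

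H2-Aa encodes the α chain of the I-A molecule. Its normalised values in p21 females were 104.8, 116.0, 114.2 and 90.1, in SW females 150.3, 124.8, 202.7 and 143.0, and in DW females 165.8, 147.3, 184.5 and 161.0. Both p28 groups of females lay above every p21 female. In males the values were 90.7, 94.1, 235.1 and 175.2 at p21, 135.3, 157.9, 159.5 and 247.0 after standard weaning, and 142.1, 160.5, 159.8 and 108.2 after delayed weaning. The 3 male groups overlapped, since the p21 males alone spanned nearly the whole range.

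H2-Eb1 encodes the β chain of the I-E molecule. Its normalised values were 47.8, 50.5, 53.8 and 42.9 in p21 females, 70.1, 62.8, 99.4 and 79.7 in SW females, and 84.0, 69.8, 110.8 and 107.6 in DW females. Neither p28 group overlapped the p21 females. In males they were 42.9, 44.3, 113.8 and 76.2 at p21, 65.6, 76.3, 78.6 and 126.9 after standard weaning, and 69.4, 79.5, 71.9 and 53.1 after delayed weaning, with overlap between all 3.

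H2-Ab1 encodes the β chain that pairs with H2-Aa. Its normalised values were 89.9, 121.3, 139.6 and 124.6 in p21 females and 174.5, 131.9, 301.5 and 270.9 in SW females, which overlapped by 1 animal. In DW females they were 312.9 and 233.4 in animals 76 and 77, and 86.2 and 67.8 in animals 82 and 83. The last 2 were below every p21 female, and the first 2 above all of them. Males had 76.5, 122.8, 276.7 and 229.9 at p21, 176.2, 177.8, 256.6 and 403.7 after standard weaning, and 192.7, 250.6, 190.7 and 156.4 after delayed weaning.

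Cd74 (ENSMUSG00000024610, chr18:60803849-60812652 in GRCm38.p6) encodes the invariant chain, the chaperone of newly made class II pairs. Its normalised values were 235.7, 261.5, 240.5 and 191.3 in p21 females, 306.0, 264.6, 448.5 and 304.5 in SW females, and 350.5, 313.9, 241.3 and 199.1 in DW females. SW females lay above the p21 females, while the DW females overlapped them through animals 82 and 83. The male means were 331.2 ± 152.3 at p21, 364.3 ± 83.1 after standard weaning and 282.1 ± 47.6 after delayed weaning (SD, n = 4 each). The p21 males again spread most, from 184.1 to 511.2.

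Ciita, the transactivator, had means of 33.2 ± 11.6, 44.2 ± 14.3 and 45.4 ± 13.5 in p21, SW and DW females, and 47.0 ± 23.5, 57.5 ± 9.98 and 61.7 ± 5.30 in the same groups of males (SD, n = 4 each). Of the peptide exchange genes, H2-DMa had means of 15.7 ± 1.35, 23.3 ± 5.43 and 21.5 ± 8.85 in p21, SW and DW females (SD, n = 4 each). For H2-DMa the p21 females (14.2 to 17.5) lay below the SW females (18.0 to 30.6), but not below the DW females (11.9 to 30.9). H2-DMb1 had 17.6 ± 3.43, 23.7 ± 5.10 and 22.1 ± 2.09 in the same 3 groups, with overlap between them. The H2-O pair, which B cells are known to make, differed within itself: H2-Oa had 7.80 ± 1.35, 12.1 ± 2.92 and 12.0 ± 3.45, and H2-Ob 41.3 ± 10.8, 43.5 ± 15.0 and 65.1 ± 21.5 in p21, SW and DW females (SD, n = 4 each). In DW females 82 and 83, whose libraries stand apart as described below, H2-Ob was at 76.4 and 89.5 and H2-Oa at 10.3 and 8.24. In DW females 76 and 77 H2-Ob was at 50.7 and 43.7 and H2-Oa at 16.1 and 13.4.

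From p21 to p28 in females, 1 of the 9 genes rose past the test: H2-Eb1, in the DW animals, from a mean of 48.8 to 93.1 normalised reads. The change was 0.90 on the log2(value + 1) scale (SE 0.248, 95% interval 0.38 to 1.41), with an adjusted p of 0.0207 by limma over all genes tested (unadjusted p = 0.00151). All 4 DW females exceeded all 4 p21 females. In this comparison 12.1% of all genes were called, so 1 of 9 is close to the background. For DW females against p21 females the changes of the other 8 genes ran from 0.22 (Cd74) to 0.63 (H2-Aa, adjusted p = 0.0875 by limma), and 3 of the 9 genes had an unadjusted p under 0.05, as did 27.6% of all genes. The H2-Eb1 call was lost without DW females 82 and 83 (log2 change 0.65, adjusted p = 0.202 by limma). It was also lost without DW female 82 (log2 change 0.81, adjusted p = 0.0695), DW female 83 (0.82, adjusted p = 0.0716) or p21 female 56 (0.84, adjusted p = 0.0565) alone, all by limma.

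For SW females against the same p21 females the changes of the 9 genes were all positive, from 0.05 (H2-Ob) to 0.82 (H2-Ab1) on the log2(value + 1) scale, with a median of 0.52. None passed limma's test against 11.6% of all genes, and edgeR and DESeq2 called none either; 4 of the 9 had an unadjusted p under 0.05, as did 24.1% of all genes. H2-Eb1 came nearest, at 0.65 (SE 0.248, adjusted p = 0.0985 by limma). With only these 2 groups in the limma fit, 4 of the 9 were called against 15.0% of all genes: H2-Eb1 (adjusted p = 0.0116), H2-Aa (0.0351), H2-DMa (0.0444) and H2-Ab1 (0.0485). With the B cell marker level as a covariate 2 were called (H2-Eb1 and H2-DMb1, against 13.5%), and without p21 male 53 and SW male 84 there was 1 (H2-Eb1, against 14.2%). The values of SW and p21 females did not overlap for 4 of the 9 genes, H2-Aa, H2-Eb1, Cd74 and H2-DMa, each higher in SW females; 21.5% of all genes did not overlap in this comparison. For DW females the count was 2 of 9, H2-Aa and H2-Eb1, against 15.1% of all genes, and 8 of 9 against 39.6% when animals 82 and 83 were left out, which leaves 2 DW females. No member separated these 2 from the SW females, where 17.6% of all genes did. The count for SW females became 7 without p21 female 55, and that for DW females 4, against 24.4% and 17.8% of all genes. The 2 comparisons share the p21 females.

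The authors' deposited table, whose test is not described in the sources used here, lists adjusted p-values under 0.05 for 7 of the 9 genes in SW against p21 females, all but Ciita and H2-Ob, where 23.9% of its genes are under 0.05. For H2-Eb1 the authors' deposited table gives a log2 fold change of 0.68 there (adjusted p = 0.00911) and 0.93 for DW against p21 females (adjusted p = 0.000331). For DW against p21 females the authors' deposited table has 4 of the 9 genes under 0.05 (H2-Aa, H2-Eb1, H2-Oa and H2-Ob), beside 27.3% of all genes.

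From p21 to p28 in males no member passed the test, by limma, edgeR or DESeq2. After standard weaning the 9 changes were positive, from 0.04 (H2-Ob) to 0.61 (H2-Ab1) with a median of 0.38 (log2), and 11.9% of all genes were called. H2-DMa had the smallest adjusted p there, 0.181 by limma (log2 change 0.55, SE 0.263), and was the 1 gene of 9 with an unadjusted p under 0.05 (27.0% of all genes). After delayed weaning the median change was 0.08, from -0.13 (Cd74) to 0.49 (Ciita), with 15.0% of all genes called and 0 of the 9 genes at an unadjusted p under 0.05 (30.0% of all genes). In neither comparison did the values of any member separate the groups, where 16.2% (SW) and 23.1% (DW) of all genes did; without p21 male 53, 1 member did in each, against 22.6% (SW) and 29.5% (DW) of all genes. The median over all genes tested lay between -0.03 and 0.02 in the 9 comparisons of pairs of groups.

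The change from p21 to p28 was compared between the sexes by an interaction term. For the DW animals H2-Eb1 changed by 0.81 more in females than in males on the log2 scale (95% interval 0.09 to 1.54, adjusted p = 0.251 by limma), and none of the 9 genes was called, against 0.0687% of all genes. For the SW animals none was called either (1.03% of all genes), nor for the sex difference of the weaning effect (0.0187%). At an unadjusted p under 0.05 there were 1, 0 and 0 of the 9 genes, against 17.0%, 8.15% and 5.09% of all genes. Among the 9, edgeR and DESeq2 called none in any of the 3 comparisons; over all genes edgeR called 0, 4 and 0 and DESeq2 309, 102 and 1.

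**Figure D2:**
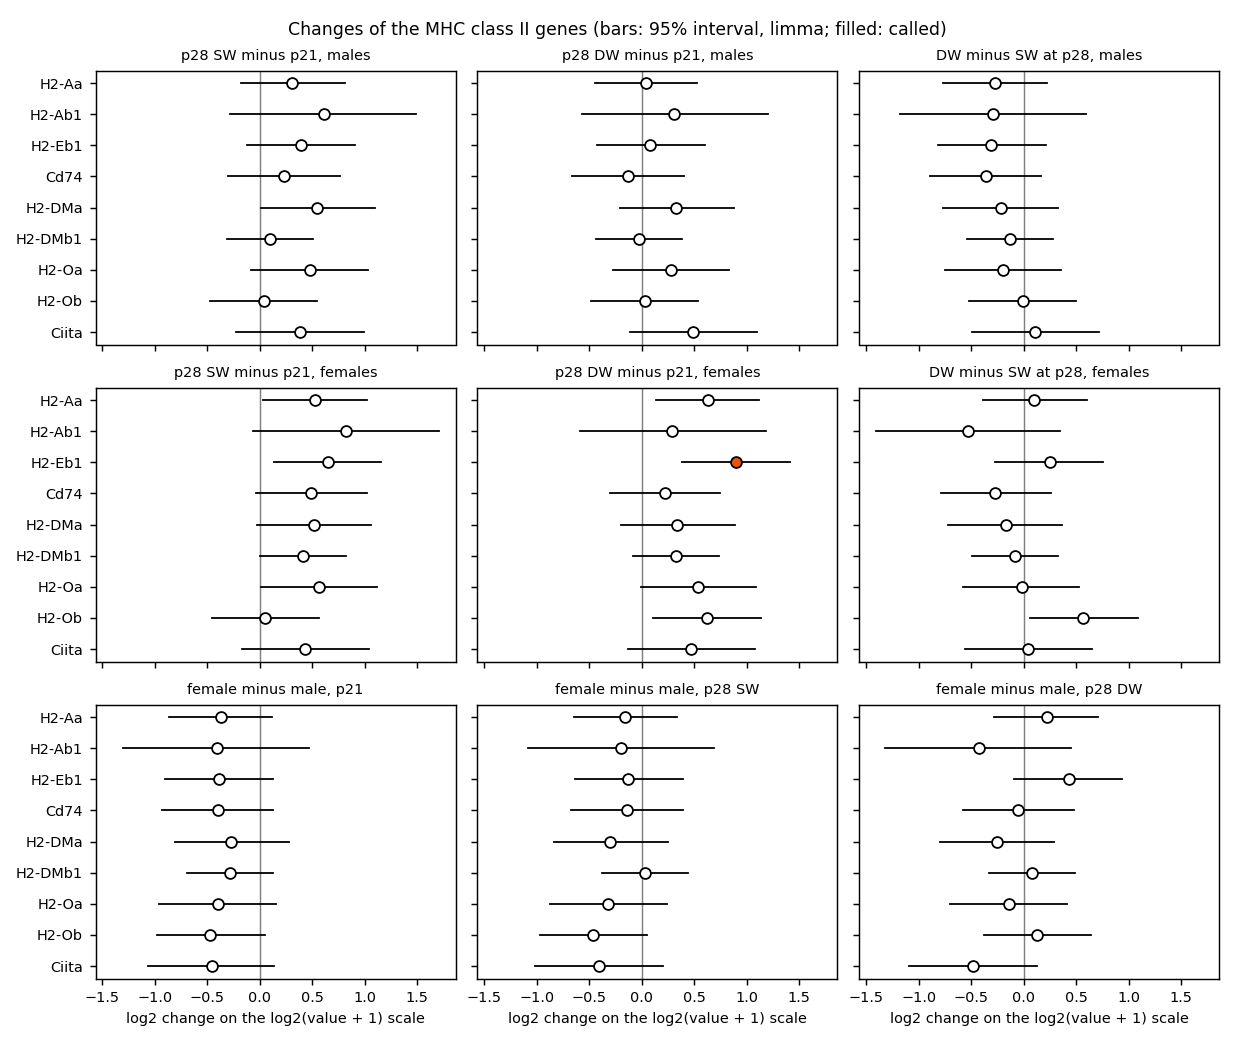
Change of each of the 9 genes in the 9 comparisons of pairs of groups, on the log2(value + 1) scale, from limma with all 24 libraries; points are estimates, bars 95% intervals, and the filled point is the 1 call (H2-Eb1, DW minus p21 females, 0.90). In the 2 panels of females against p21 every estimate is above 0, as in SW minus p21 males (0.04 to 0.61). The weaning and sex panels hold intervals that include 0 for every gene but H2-Ob in DW minus SW females.

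The time of weaning was compared between DW and SW animals of the same age. In males the 9 changes (DW minus SW) ran from -0.36 (Cd74) to 0.11 (Ciita), with 8 of 9 negative and a median of -0.22 on the log2 scale; no gene passed the test (0.256% of all genes did). In females they ran from -0.53 (H2-Ab1) to 0.57 (H2-Ob), with 5 of 9 negative and a median of -0.02, and again none passed (1.27% of all genes). In DW females 76, 77, 82 and 83 H2-Ob was at 50.7, 43.7, 76.4 and 89.5, against 28.9 to 62.1 in SW females. The libraries of animals 82 and 83 stand apart, as described below. H2-Ob had a mean of 65.1 ± 21.5 in DW females and 43.5 ± 15.0 in SW females (SD, n = 4 each), with overlapping values and an adjusted p of 0.229 by limma. It was the 1 gene of 9 with an unadjusted p under 0.05 in females (18.9% of all genes), and in males there was 0 of 9 (6.94% of all genes); edgeR and DESeq2 called none in either sex. In the authors' deposited table H2-Ob is the 1 gene of the 9 under 0.05 in this comparison of females (log2 fold change 0.58, adjusted p = 0.0239), beside 16.9% of its genes. Some of the 95% intervals leave room for sizeable changes in either direction, for example -1.18 to 0.59 for H2-Ab1 and -0.49 to 0.72 for Ciita in males. Others leave more room for a fall, such as -0.89 to 0.17 for Cd74 in males and -1.41 to 0.35 for H2-Ab1 in females. The H2-Ab1 interval in females joins DW animals 76 and 77 (312.9 and 233.4) with animals 82 and 83 (86.2 and 67.8). The SW females ranged from 131.9 to 301.5.

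The p28 animals carry numbers from 73 to 80, from 81 to 87 and 124, and the labels do not say whether these runs differ in date or litter. Among animals 73 to 80 the median change of the 9 genes between DW and SW was 0.16 in males and 0.08 in females. Among animals 81 to 87 it was -0.24 in males and -0.23 in females. In females this run sets DW animals 82 and 83, whose libraries stand apart as described below, against 1 SW animal, and the 9 changes went both ways, from -1.81 (H2-Ab1) to 1.26 (H2-Ob). Each of these medians rests on 1 to 3 animals a group. No member separated DW from SW animals in either sex, where 8.73% of all genes did in males and 5.79% in females; without DW male 80, 1 member did in males, against 13.4%.

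Between the sexes, the 9 genes were lower in females than in males at p21 by their means, with log2 changes from -0.47 (H2-Ob) to -0.27 (H2-DMa), and none passed limma's test (0.356% of all genes did). For Cd74 the authors' deposited table gives -0.51 (adjusted p = 0.0485), the 1 gene of the 9 under 0.05 there, beside 10.4% of its genes. In SW animals 8 of 9 changes were negative with a median of -0.20, and in DW animals 5 of 9 with a median of -0.05. None was called in either, against 3.54% and 2.46% of all genes, and at all 3 stages 0 of the 9 genes had an unadjusted p under 0.05 and edgeR and DESeq2 called none. Over all genes, 8.60%, 9.16% and 19.7% had such a p at p21, in SW and in DW animals. Members whose values separated the sexes numbered 0 at each stage, against 3.97%, 7.77% and 10.9% of all genes at p21, in SW and in DW animals. Leaving out 1 SW female, animal 75, made it 4 in SW animals, against 10.3% of all genes, and leaving out DW female 76 or 77 made it 1 or 2 in DW animals, against 16.4% and 16.9%. Without both DW females 82 and 83 it was 2 of 9 in DW animals, against 32.0% of all genes.

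Other genes of antigen presentation were called from p21 to p28. Of 13 genes of peptide processing and display, 3 rose in SW males, 4 in SW females, 4 in DW males and 3 in DW females, and none fell. Of all genes, 11.9%, 11.6%, 15.0% and 12.1% were called in these 4 comparisons, in either direction. Ctsd, a lysosomal protease, rose in all 4 comparisons, by 0.69 (adjusted p = 0.00235) in SW males and 0.69 (adjusted p = 0.00226) in DW females by limma. Ctss, the protease that trims the invariant chain, rose in SW females (71.5 to 102.6, adjusted p = 0.0468 by limma), as did Ifi30, a lysosomal thiol reductase (33.8 to 51.8, adjusted p = 0.0344). Marchf1, a ligase that removes class II from the surface, and the costimulatory ligand Cd86 rose in DW females by 0.79 and 0.63.

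Of 11 genes of class II transcription, including the factors that read the X and Y boxes, none rose in any of these 4 comparisons. Called in either direction were 11.9% (SW males), 11.6% (SW females), 15.0% (DW males) and 12.1% (DW females) of all genes. Nfyc, a subunit of NF-Y, fell in DW males (38.7 to 26.2, adjusted p = 0.0281 by limma) and in DW females (36.0 to 24.7, adjusted p = 0.0218). Rfxank, a subunit of RFX, fell in DW females (32.4 to 22.3, adjusted p = 0.0382 by limma). In DW females 76, 77, 82 and 83 Nfyc was at 29.5, 28.5, 23.5 and 17.2 and Rfxank at 27.2, 27.7, 19.7 and 14.6, lowest in animals 82 and 83, the libraries that stand apart; their part in these falls was not tested. Of 6 genes of interferon gamma signalling, the best known inducer of Ciita, none was called, and Ifng itself was at 0 to 0.188 normalised reads per library.

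MHC class I genes, which present peptides from inside the cell, were also called: 4 of 10 rose in SW males and 4 of 10 in SW females against p21, B2m, H2-D1, H2-K1 and Tapbp in each sex. B2m, the light chain of class I, rose from 996.6 to 1817.0 in SW females (log2 change 0.86, adjusted p = 0.000449 by limma). In DW males 0 of 10 and in DW females 2 of 10 rose (B2m and Tapbp). The share of all genes called against p21 was 11.9% in SW males, 11.6% in SW females, 15.0% in DW males and 12.1% in DW females. None of the 10 was called between DW and SW animals in either sex, where the differences themselves were tested. There, 0.256% of all genes were called in males and 1.27% in females.

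Markers of cells that carry class II, and of other tissue in the samples, were followed beside the 9 genes. Against p21, 11.9% of all genes were called in SW males, 11.6% in SW females, 15.0% in DW males and 12.1% in DW females. Of 10 macrophage markers, 6 rose from p21 in SW males, 7 in SW females, 9 in DW males and 7 in DW females; Adgre1, which encodes F4/80, went from 8.35 to 23.9 in DW females (log2 change 1.41, adjusted p = 0.000134 by limma). The summed level of the 10 was 243.7 to 285.1 in p21 females, 503.5 to 569.4 in SW females and 372.9 to 655.8 in DW females. Of 8 dendritic cell markers, 4 rose in each p28 group of females (Clec10a, Cd209a, Clec9a and Xcr1), while Ccr7 fell in SW females. In SW males and in DW males 2 of the 8 rose and 1 fell. The summed level of the 8 was 88.4 to 108.1 in p21, 96.7 to 127.9 in SW and 105.7 to 124.9 in DW females. Of 10 B cell markers none was called in any comparison, and their summed level was 398.7 to 721.0, 451.9 to 888.7 and 551.8 to 769.6 in the same 3 groups. No marker of these 3 lists was at 0 in any library, and their part in the change of H2-Eb1 was not tested, except that with the B cell level as a covariate it was 0.70 (adjusted p = 0.0122 by limma). Of 7 T cell markers, 2 fell in SW males, 3 in DW males and 1 in DW females (Cd3e, from 61.8 to 39.3), with summed levels of 310.0 to 410.5, 214.8 to 345.0 and 252.1 to 346.7 in p21, SW and DW females, and of 5 lymph node stroma markers 1 fell, Glycam1 in SW males. Of 5 epithelial markers, 4 rose in SW females and 0 in DW females against p21; their summed level was 11.9 to 50.5, 144.6 to 196.6 and 42.1 to 113.4 in p21, SW and DW females, Krt8, Krt14 and Krt5 were at 0 in at least 1 library, and their part in the members' values was not tested. Of 5 skeletal muscle markers, 5 rose in SW and in DW males and 0 in females; their summed level ran from 3.39 to 5775.2 over the libraries, Myh4 was at 0 in at least 1 library, and their part was not tested either.

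Across mice, the levels of the 9 genes went with those of B cell markers and of markers of all leukocytes. Over the 24 libraries, Pearson's r between each gene and the mean log2 level of the 10 B cell markers was 0.64 (H2-Ab1 and H2-Eb1) to 0.86 (Ciita). All 9 had a permutation p under 0.05 after adjustment over 54 relations between genes and lists. For Ciita, r was 0.86 and Spearman's rho 0.87 (two-sided permutation p = 1e-05 for each, the smallest that 100000 permutations can give; adjusted p = 0.00018 and 0.00027), and r was 0.80 without the 2 libraries farthest from the median B cell level. For Cd74, r was 0.72 (permutation p = 7e-05, adjusted p = 0.00063) and rho 0.69 (permutation p = 0.00039, adjusted p = 0.0021), and r was 0.66 without those 2 libraries. After the group means were taken out, r with the B cell markers was 0.66 to 0.94 for the 9 genes, so it held within groups. With 4 markers of all leukocytes r was 0.52 to 0.74, 0.67 to 0.87 within groups, and 9 of 9 passed the adjustment.

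With macrophage markers r was -0.01 (H2-Ob) to 0.46 (H2-DMa), and 1 of 9 passed the adjustment (3 of 9 by rho). Within groups it was -0.55 to 0.17. Without p21 males 53 and 54, the libraries farthest from the median macrophage level, r was 0.26 (H2-Ob) to 0.75 (H2-Oa), and it was 0.54 to 0.80 with the B cell markers without the 2 libraries farthest there. For Cd74 and macrophage markers r was 0.14 (permutation p = 0.51, adjusted p = 0.55) and rho 0.29 (permutation p = 0.17, adjusted p = 0.23), and r was 0.62 without the same 2 males. With dendritic cell markers r was 0.42 to 0.70 (7 of 9 past the adjustment) and 0.25 to 0.70 within groups. With T cell markers it was 0.10 to 0.39 (0 of 9) and 0.60 to 0.80 within groups. With lymph node stroma it was 0.15 to 0.61 (5 of 9) and 0.36 to 0.90 within groups. Without the 2 libraries farthest from the median of each list, r was 0.34 to 0.63 with all leukocytes and 0.19 to 0.61 with dendritic cell markers. It was then -0.12 to 0.12 with T cell markers and 0.12 to 0.46 with lymph node stroma. The difference between these lists was not tested, and all values come from the same libraries.

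**Figure D3:**
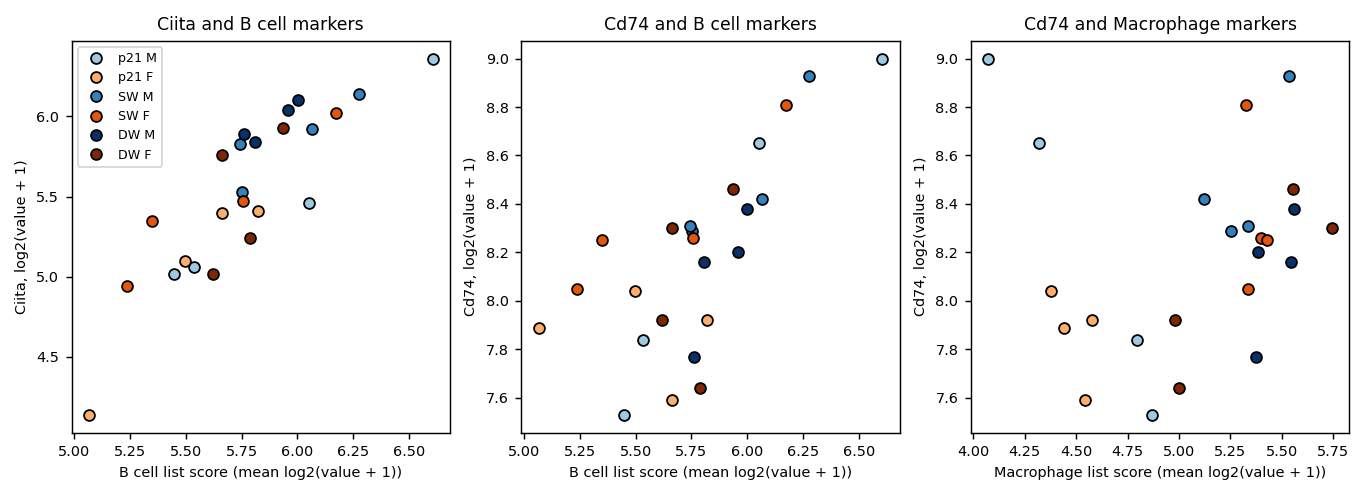
Level of Ciita and Cd74 in each mouse (log2(value + 1)) against the mean log2(value + 1) of 10 B cell markers, and Cd74 against 10 macrophage markers; each point is 1 of 24 mice, coloured by group. Ciita climbs with the B cell markers (r = 0.86), while Cd74 shows r = 0.14 with the macrophage markers, with p21 males 53 and 54 at low macrophage and high Cd74 level.

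The genes whose pattern was most like the 9 were found by Pearson's r over the 24 libraries among 9134 genes with a mean of at least 10 normalised reads. For the mean of H2-Aa, H2-Ab1, H2-Eb1 and Cd74 they included Irf5 (r = 0.905), H2-T23 (0.893), Cd79a (0.870), Pkig (0.870) and Blnk (0.865). Cd79a encodes a chain of the B cell receptor complex and Blnk a signalling adaptor below it, while Irf5 is a transcription factor. For Ciita they were Wdfy4 (0.969), Ccr6 (0.964) and Syk (0.946), and for H2-Ob Stap1 (0.945), Gimap8 (0.930) and A630001G21Rik (0.923). These values are picked as the highest of many and are given as a description.

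The 9 genes did not keep step in every library. Over the 36 pairs of members, r across the 24 libraries ran from 0.18 to 0.96 with a median of 0.74, and without DW females 82 and 83 it ran from 0.60 to 0.98 with a median of 0.84. In these 2 animals the mean log2 level of H2-Ab1 was lower than in DW females 76 and 77 by a difference of -1.81, and that of H2-DMa by -0.99. H2-Ob differed the other way by 0.80 and H2-Eb1 by 0.51, while H2-Aa, the partner chain of H2-Ab1, differed by 0.14. The H2-Ab1 to H2-Aa ratio was 0.47 and 0.42 in animals 82 and 83, and 0.84 to 1.89 (median 1.31) in the other 22 libraries.

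The same 2 libraries stood apart in how gene levels followed GC content, the share of G and C in a gene's longest transcript. Their levels, relative to the mean library, changed by -0.332 (animal 82) and -0.543 (animal 83) on the log2 scale per 10 points of GC. The slope was -0.308 in p21 male 37, and -0.097 to 0.273 in the other 21 libraries. Among the members, GC content ran from 46.0% (H2-Ob) and 46.5% (H2-Aa) to 56.6% (Cd74) and 57.3% (H2-Ab1). Genes within 1 point of H2-Ab1 in GC content had a median difference between the 2 pairs of DW females of -0.62 (1030 genes), and those within 1 point of H2-Ob 0.20 (1314 genes). After each library's trend with GC content was taken out, the difference of H2-Ab1 was -1.35, of H2-DMa -0.69, of H2-Eb1 0.61, of H2-Ob 0.63 and of H2-Aa -0.01.

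**Figure D4:**
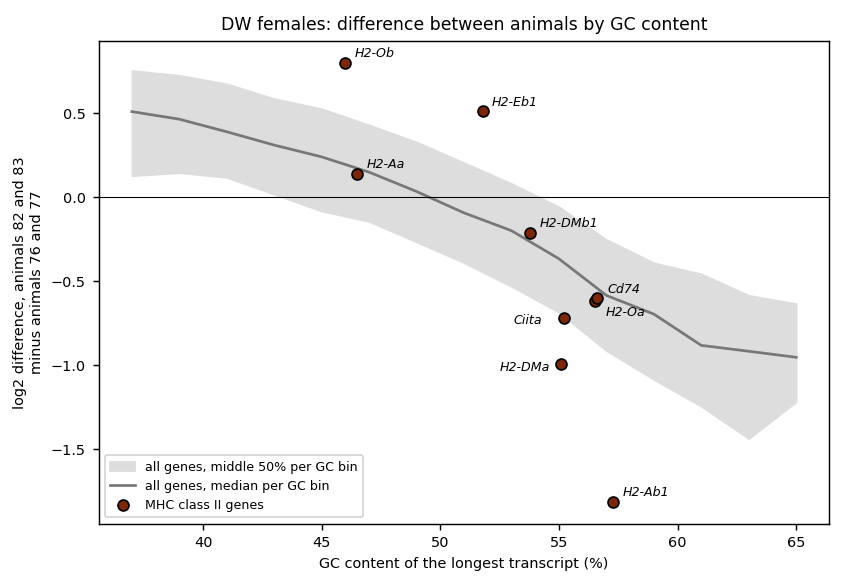
Difference between DW females 82 and 83 and DW females 76 and 77 (mean log2(value + 1)) against the GC content of the longest transcript in percent; points are the 9 genes, the line and the grey band are the median and the middle 50% of all genes in bins of GC content. H2-Ab1 (-1.81), H2-DMa (-0.99) and, just at its edge, Ciita (-0.72) lie below the band, and H2-Ob (0.80) and H2-Eb1 (0.51) above it.

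Over the 24 libraries the H2-Ab1 to H2-Aa ratio (log2) went with the GC slope of the library (r = 0.87, two-sided permutation p = 1e-05, adjusted over 4 ratios 1.3e-05; rho = 0.71, permutation p = 0.00019, adjusted p = 0.00025). Without animals 82 and 83, the farthest in slope, r was 0.68, and over the 21 libraries that also leave out p21 male 37 it was 0.57. The H2-Ob to H2-Oa ratio went the other way (r = -0.89, permutation p = 1e-05, adjusted p = 1.3e-05; rho = -0.79, permutation p = 1e-05, adjusted p = 4e-05), with r of -0.81 without animals 82 and 83 and -0.76 over the 21. For H2-Ab1 to H2-Eb1 r was 0.87, 0.67 without animals 82 and 83 and 0.52 over the 21. For H2-DMb1 to H2-DMa, at 53.8% and 55.1% GC, it was -0.69, -0.44 and -0.26. H2-Ab1 and H2-Aa have a GC content of 57.3% and 46.5%, and H2-Ob and H2-Oa of 46.0% and 56.5%. The slope is fitted on gene levels of the same libraries, so a ratio of genes far apart in GC content is not independent of it. Ratios of other gene pairs were not examined for reference.

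**Figure D5:**
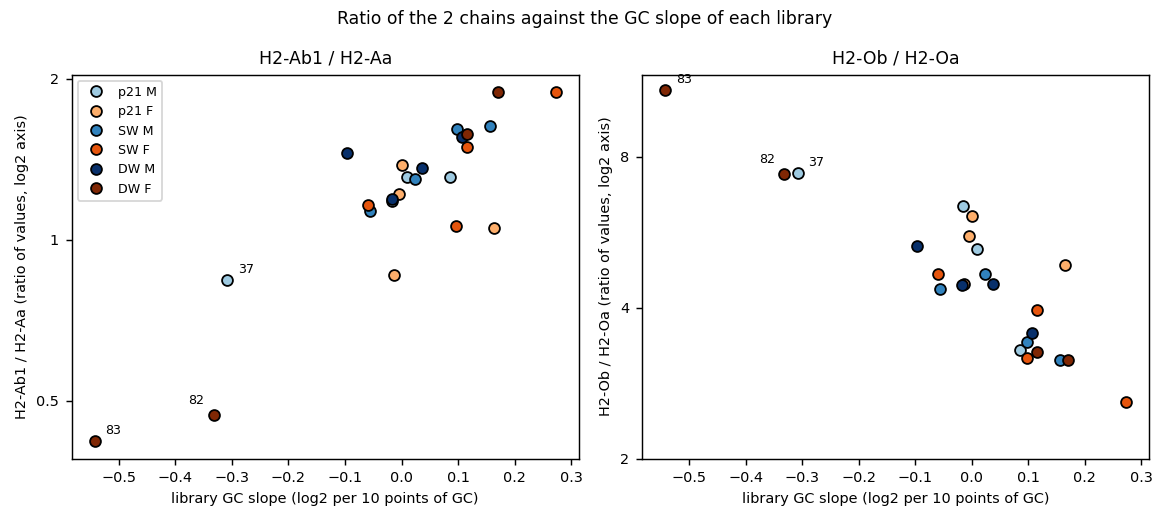
Ratio of H2-Ab1 to H2-Aa and of H2-Ob to H2-Oa (normalised values, log2 axis) in each mouse against the slope of gene levels on GC content in its library (log2 per 10 points of GC); points are 24 mice coloured by group, with animals 37, 82 and 83 numbered. The first ratio climbs with the slope (r = 0.87) and the second falls (r = -0.89).

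Values corrected for GC content were also tested, a check added after these libraries were seen to stand apart. For DW against p21 females H2-Eb1 then changed by 0.95 (adjusted p = 0.0128 by limma) and H2-Oa by 0.65 (adjusted p = 0.0453). No other of the 9 genes was called there, against 15.4% of all genes. Without p21 male 37 and DW females 82 and 83, the genes called there were H2-Ab1 (log2 change 1.20, adjusted p = 0.0389 by limma) and H2-DMa (0.84, adjusted p = 0.0249), while H2-Eb1 was not (0.65, adjusted p = 0.157). Of the DW females this leaves animals 76 and 77, and 10.0% of all genes were then called. The members called for DW females thus differed with the treatment of these libraries.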

How the data were processed

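The authors deposited 1 table of gene values, read as signal: each deposited value is a whole number of reads times a step that differs between libraries (100% of values within 0.01), and the scaling is not given in the sources used here. The submitters' processing notes name fastp, HISAT2, featureCounts, DESeq2 1.38.3 and the build mm10, with no roles; strand and multimapping settings are not given in the sources used here. The authors' deposited log2 fold changes and adjusted p-values are quoted as theirs. The table's 16208 rows include 90 repeats, which were left out.

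The main test was limma 3.58.1 in R 4.3.3 (variance trend, 24 libraries in 6 groups, 18 residual degrees of freedom) on log2(value + 1), a scale that understates the change of low genes. Genes passed edgeR's filter (minimum count 10), and Benjamini-Hochberg adjustment ran over all genes tested, with calls at an adjusted p under 0.05. edgeR 4.0.16 and DESeq2 1.42.0 on the recovered reads were alternatives; in DW against p21 females they called 1 and 2 members, and 1666 and 2376 genes in all. The fits were tested on simulated data. Lengths and GC content came from GENCODE M21 and promoters and positions from RefSeq (GRCm38.p6). The GC correction subtracted a lowess trend (span 0.3) per library. Replicates are separate mice by their ID numbers, and no 2 of 36 replicate pairs agreed within sampling noise (smallest chi-square per degree of freedom 75.4). The members and lists were chosen with earlier results of these data known. The text names the 9 members, called genes of the lists and, by correlation, 6 genes like the classical genes, 1 of which is not reported here, and 3 each like H2-Ob and Ciita.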

Additional observations from a re-analysis of the deposited data

How the results depend on the processing

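The count of members called stayed at its value in 9 of the 12 comparisons under every alternative run (edgeR, DESeq2, other scaling, pseudocount, filter and variance settings, covariates, libraries left out), which for these 9 is 0. In SW against p21 females the count was 0, and it was 4 when the fit held just the groups compared (15.0% of all genes), 2 with the B cell level as a covariate (13.5%) and 1 without p21 male 53 and SW male 84 (14.2%). In DW against p21 males it became 1 (Ciita) with the B cell covariate (17.4% of all genes). In DW against p21 females it was 1, and it became 2 by DESeq2 (14.8% of all genes), with only the compared groups (3.09%), without p21 male 53 and SW male 84 (15.4%), without p21 male 37 and DW females 82 and 83 (10.0%), and with values corrected for GC content (15.4%). It became 0 without DW females 82 and 83 (8.70%), and was 0 to 2 with 1 mouse left out at a time (2 without DW female 77, 0 without p21 female 56 or DW female 82 or 83); the cause was not tested. The sign of H2-Ab1 in this comparison turned without DW female 76 (-0.08) and with the B cell covariate (-0.02).

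With 1 mouse left out, the count of members whose values did not overlap ranged from 0 to 1 for DW against SW males and for p28 against p21 males of either weaning, from 4 to 7 for SW and 2 to 4 for DW against p21 females, and from 0 to 4 (SW) and 0 to 2 (DW) between the sexes. Without DW females 82 and 83 it was 8 for DW against p21 females and 2 between the sexes in DW animals, where 32.0% of all genes then did not overlap. No paired analysis was possible because the groups share no replicate numbers. With 4 mice a group, a gene that missed the test is not shown to be unchanged.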
